A study of Mus musculus with 6 samples.

Results

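The 33 genes described here are Trp53, which encodes the tumour suppressor p53, its regulators Mdm2 and Mdm4, and 30 genes reported as p53 targets. They were chosen by name from the 53465 genes of the table, and each name matched 1 row. The 6 libraries are poly(A)-selected RNA of a mouse leukaemia line, Nras(G12D)/MLL-AF9, with mutant Nras and the MLL-AF9 fusion, grown with the cytokines SCF, IL-3 and IL-6. The OMP group was treated with 100 µM 4'-O-methylpyridoxine, a vitamin B6 analog, for 6 days and the Vehicle group with PBS for the same time, with 3 libraries each. Both groups carry both oncogenes, and 1 line, 1 dose and 1 day were measured.

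p53 is a transcription factor that binds DNA as a tetramer and raises the transcription of genes for cell-cycle arrest, cell death and DNA repair. Mdm2, a ubiquitin ligase, marks p53 for degradation and is itself a p53 target, and Mdm4 binds p53 and blocks its activity. p53 is controlled mostly at the level of its protein, which mRNA levels do not show. In blood progenitors the pathway is known for limiting growth after stress or oncogene activation.

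Levels are given in RPKM, reads scaled to gene length and library total. Fold changes are OMP over Vehicle on the scale of log2(RPKM + 0.5), which understates the change of low genes, with the standard error (SE) of limma. A gene is called higher or lower where its Benjamini-Hochberg adjusted p over all 11020 genes tested was under 0.05. Library totals recovered from the values ran from 3494986 to 3720117 reads in OMP and from 3737843 to 4247619 reads in Vehicle. The myeloid genes Ptprc, Spi1 and Itgam averaged 139 ± 4.52, 128 ± 2.24 and 51.1 ± 1.95 RPKM in OMP and 107 ± 3.17, 113 ± 0.528 and 38.3 ± 0.0985 RPKM in Vehicle (SD, n = 3 each). They belong to a list of 8 markers of myeloid leukaemia cells, of which 4 were higher and 2 lower, against 15.4% and 27.5% of all genes. The lower ones were the granule enzyme Mpo, at 2.63 ± 0.563 RPKM in OMP and 12.3 ± 0.648 RPKM in Vehicle, and the SCF receptor Kit, at 8.88 ± 1.15 RPKM in OMP and 19.8 ± 1.20 RPKM in Vehicle. A further annotated gene, also named Itgam, overlaps the entry given above and is left out here. Nothing in the labels says that libraries came from separate cultures. The p-values therefore rest on differences among these 6 libraries, and those may be technical.

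OMP-treated cells held more mRNA of p53 targets for cell-cycle arrest, Cdkn1a, Ccng1, Plk2, Ptp4a3 and Zmat3, of the death genes Bax and Bbc3 and of the repair gene Ercc5. They held less mRNA of Trp53 itself, of Mdm4, of the death gene Pmaip1 and of the repair genes Rrm2b and Xpc, and of the ephrin receptor gene Epha2. Mdm2 was higher. Of the 33 members 29 passed the filter of at least 1 RPKM in 3 libraries, and 15 of these were called, or 51.7%, against 43.0% of all genes tested. The 9 higher members were 31% of those tested (15.4% over all genes) and the 6 lower members 20.7% (27.5% over all genes), with a median log2 fold change of 0.05 against -0.09 over all genes. Plk2 passed the filter through the OMP libraries alone. In 19 of the 29 the groups did not overlap, or 65.5%, against 54.5% of all genes tested.

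**Figure D1:**
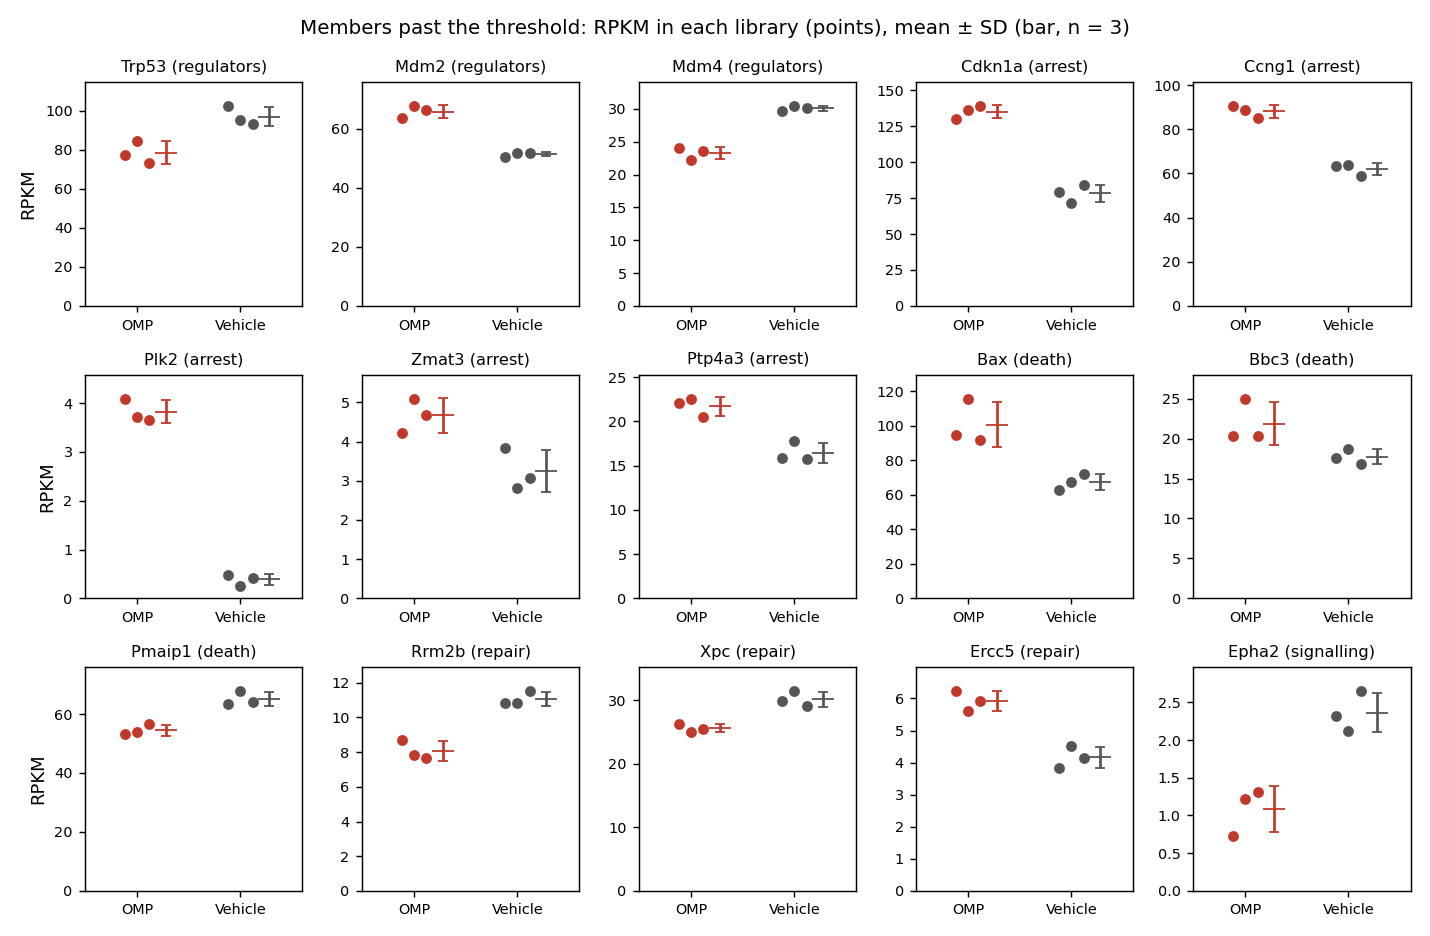
RPKM (vertical axis) of the 15 members past the threshold in each OMP and Vehicle library (points), with mean and SD (bars, n = 3). In all 15 panels the OMP points lie clear of the Vehicle points, and the widest gap for its scale is that of Plk2, at 3.65 to 4.09 RPKM in OMP and 0.262 to 0.478 RPKM in Vehicle. The panels were selected for a small adjusted p on these same values, which favours separate groups.

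The plot of RPKM by library shows the 9 higher and the 6 lower members. OMP replicate 2 was the highest library for Mdm2, Zmat3, Ptp4a3, Bax and Bbc3, which are 5 of the 9 higher members.

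The regulators moved in different directions. Trp53 (ENSMUSG00000059552, GRCm38 chromosome 11, 69580359 to 69591873) had 77.4, 84.6 and 73.0 RPKM in the OMP libraries, against 102, 95.2 and 93.2 RPKM in Vehicle. Every OMP library lay under every Vehicle library, and the log2 fold change was -0.31 ± 0.06 SE (limma adjusted p = 0.00433). Mdm4 (chromosome 1, 132959484 to 133030561) had 24.0, 22.2 and 23.6 RPKM in OMP, against 29.7, 30.4 and 30.1 RPKM in Vehicle. Its groups were again apart, at -0.36 ± 0.05 SE (limma adjusted p = 0.000896). Mdm2 (chromosome 10, 117688875 to 117710758) had 63.6, 67.7 and 66.3 RPKM in OMP, against 50.5, 51.9 and 51.9 RPKM in Vehicle. It was 1.28-fold higher (limma adjusted p = 0.000344), or 0.35 ± 0.04 SE in log2.

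Ratios between members within a library do not depend on a factor that scales the whole library. The ratio of Mdm2 to Mdm4 RPKM was 2.65, 3.04 and 2.81 in OMP, against 1.70, 1.71 and 1.72 in Vehicle. The ratio of Mdm2 to Trp53 averaged 0.843 ± 0.0575 in OMP and 0.532 ± 0.0331 in Vehicle (SD, n = 3 each). For Cdkn1a to Trp53 the means were 1.73 ± 0.151 in OMP and 0.81 ± 0.0789 in Vehicle, and for Bax to Pmaip1 1.85 ± 0.268 in OMP and 1.04 ± 0.0778 in Vehicle. The groups were apart in all 4 ratios. A two-sided exact permutation test gave p = 0.1 for each, also after adjustment over the 4, which is the smallest value that 3 against 3 libraries allow. The ratios were chosen after the values had been seen. Each sets a member that was higher without overlap over another that was lower without overlap. Separate groups and the smallest p were thus fixed beforehand, and the test adds nothing to the members' own values.

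**Figure D2:**
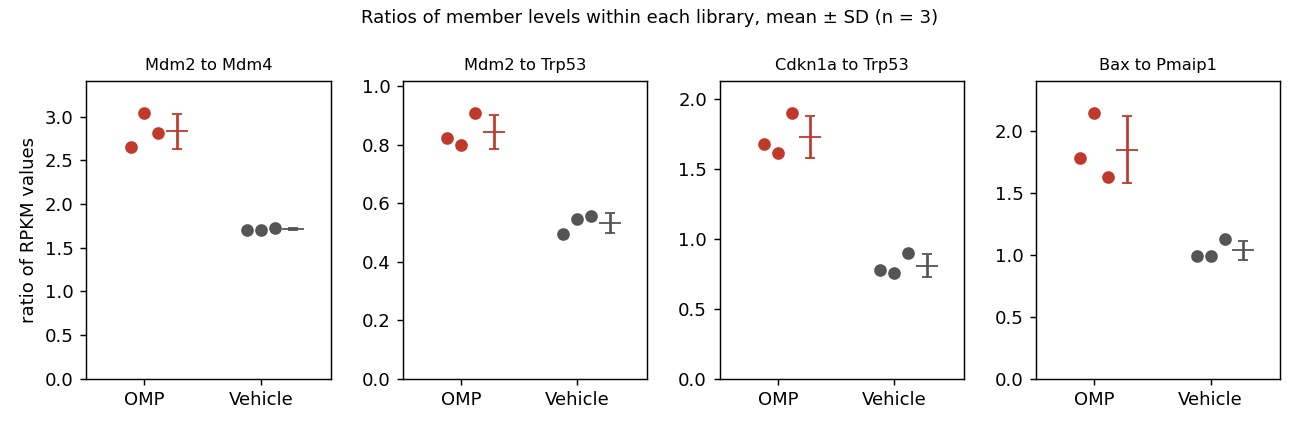
Ratio of 2 members' RPKM values (vertical axis) within each OMP and Vehicle library (points), with mean and SD (bars, n = 3). All 4 ratios were higher in each OMP library than in any Vehicle library, and Mdm2 to Mdm4 spread least in Vehicle (1.70 to 1.72).

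The plot of ratios shows changes of 1 member relative to another, not the direction of either. In Vehicle each library held less Cdkn1a than Trp53 mRNA per length, and in OMP each held more.

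Among the arrest genes 5 of 9 were called higher and 0 lower, against 15.4% and 27.5% of all genes tested. Of these 5, Plk2 passed the filter through the OMP libraries alone, and the call of Zmat3 was lost under several settings. The count is small, and its difference from the shares over all genes was not tested. Cdkn1a encodes p21, the cyclin-dependent kinase inhibitor through which p53 is best known to stop the cycle. Its gene (ENSMUSG00000023067, chromosome 17, 29090976 to 29100727) had 130.3, 136 and 139 RPKM in OMP, against 79.1, 71.9 and 83.9 RPKM in Vehicle. All OMP libraries lay above all Vehicle libraries, and the gene was 1.72-fold higher (limma adjusted p = 2.73e-05), or 0.79 ± 0.06 SE in log2. Its exons overlap an annotated RNA on the other strand, from which reads cannot be told apart without a stated strand setting.

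The promoter of Cdkn1a holds the letters of a full p53 site. A p53 site is a pair of half-sites of 10 bases, searched here by that name with no bases between them, with both 4-base cores intact and at most 2 mismatches elsewhere. The window of 250 bases before to 50 bases after the upstream of 2 RefSeq starts of Cdkn1a (GRCm38.p6, chr17:29090729-29091028, plus strand) is shown because this gene had both a match and a higher mRNA level in OMP. Capitals mark the site.
Cdkn1a: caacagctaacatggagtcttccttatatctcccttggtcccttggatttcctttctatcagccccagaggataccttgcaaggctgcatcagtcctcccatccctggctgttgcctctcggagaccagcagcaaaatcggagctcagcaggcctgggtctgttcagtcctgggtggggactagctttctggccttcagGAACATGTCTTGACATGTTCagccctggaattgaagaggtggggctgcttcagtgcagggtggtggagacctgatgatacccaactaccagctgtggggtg
The second start of Cdkn1a had no such match in its window. Of the 33 windows of 23 members with a RefSeq promoter, 2 held a match, or 6.06%, against 52 of the 32851 windows over all genes, or 0.158%. Most members were listed as reported p53 targets, so their share is not independent of such sites. The other match was in Gtse1 (GRCm38.p6, chr15:85859696-85859995, plus strand), shown with its site in capitals because its mRNA level, in contrast, did not pass the threshold.
Gtse1: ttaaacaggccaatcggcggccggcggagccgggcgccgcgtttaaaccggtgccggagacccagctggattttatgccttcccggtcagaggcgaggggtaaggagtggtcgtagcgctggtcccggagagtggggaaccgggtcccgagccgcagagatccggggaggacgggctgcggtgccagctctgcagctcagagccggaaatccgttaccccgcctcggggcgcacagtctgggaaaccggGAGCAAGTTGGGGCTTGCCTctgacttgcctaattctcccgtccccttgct
Aligned by site, with the 4-base cores in capitals, each differed from the consensus at 1 base outside the cores. The Cdkn1a site starts 51 bases before the start of its window's transcript and the Gtse1 site 1 base before its own. The window of the other RefSeq start of Gtse1 held no match.
Cdkn1a site: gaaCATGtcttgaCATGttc
Gtse1 site: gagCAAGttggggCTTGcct
These matches describe letters in a short window. A window without a match says nothing of sites elsewhere, and those of Mdm2 and several other targets are known to lie in introns.

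Gtse1 encodes a microtubule-binding protein of S and G2 phase that in human cells binds p53 and lowers its activity. It had 17.4, 19.2 and 19.9 RPKM in OMP, against 18.2, 19.04 and 19.1 RPKM in Vehicle, with overlapping groups. The log2 fold change was 0.00 with a 95% interval from -0.16 to 0.16 (limma adjusted p = 0.996). The same window of Gtse1 also holds a CHR element (TTTGAA or TTTAAA, both strands), found in 27.6% of all windows, and a CCAAT box (both strands), found in 37.4%. The window of the other Gtse1 start holds 2 CHR elements and 3 CCAAT boxes. Both elements are common in genes of the late cell cycle. Over the members' windows 36.4% held a CHR and 51.5% a CCAAT box.

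Ccng1, which encodes cyclin G1, a partner of a phosphatase that acts on Mdm2, had 90.4, 88.8 and 85.0 RPKM in OMP, against 63.5, 63.9 and 58.7 RPKM in Vehicle. It was 1.42-fold higher (log2 fold change 0.50 ± 0.05 SE, limma adjusted p = 0.000106). Plk2, a polo-like kinase with a role in centriole duplication, had the largest fold among the members. It had 4.09, 3.72 and 3.65 RPKM in OMP, against 0.478, 0.262 and 0.42 RPKM in Vehicle, from 40, 37 and 38 reads in OMP and 5, 3 and 5 reads in Vehicle. Plk2 was thus near the limit of detection in Vehicle and clearly detected in every OMP library. In log2 this was 2.29 ± 0.22 SE (limma adjusted p = 9.46e-05), while the ratio of mean RPKM values was 9.88. With so few Vehicle reads this size depends on the processing, at 1.80 with a pseudocount of 1 and 3.21 with limma-voom on recovered reads.

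Ptp4a3, a phosphatase reported as a p53 target in mouse fibroblasts, averaged 21.7 ± 1.09 RPKM in OMP and 16.5 ± 1.15 RPKM in Vehicle (SD, n = 3 each; log2 fold change 0.39 ± 0.07 SE, limma adjusted p = 0.00288). Zmat3, an RNA-binding zinc finger protein, had 4.22, 5.09 and 4.69 RPKM in OMP, against 3.84, 2.82 and 3.08 RPKM in Vehicle. The groups were apart by a narrow margin, and the call (limma adjusted p = 0.0321) was lost without Vehicle replicate 2 (0.1), Vehicle replicate 3 (0.0842), OMP replicate 2 (0.0956) or OMP replicate 3 (0.078). With rescaling to TPM its limma adjusted p was 0.0536, without a filter 0.0891 and with the replicate number as a block 0.0668.

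The remaining 4 arrest genes did not pass. Btg2, an antiproliferative cofactor of mRNA deadenylation, had 5.01, 5.34 and 7.15 RPKM in OMP, against 3.71, 4.81 and 4.38 RPKM in Vehicle (log2 fold change 0.39 ± 0.16 SE, limma adjusted p = 0.0753). Its groups did not overlap, and it passed with median-of-ratios scaling (limma adjusted p = 0.0387), quantile normalization (0.0253) and voom (0.0378). Psrc1, a spindle protein, averaged 7.27 ± 1.25 RPKM in OMP and 8.65 ± 0.729 RPKM in Vehicle, and was called lower without OMP replicate 2 alone (limma adjusted p = 0.0332). Trp53cor1, the long non-coding RNA lincRNA-p21 transcribed next to Cdkn1a on the opposite strand, had 3.10, 2.95 and 4.18 RPKM in OMP, against 3.08, 2.48 and 4.30 RPKM in Vehicle. The groups overlapped, and the 95% interval of its log2 fold change ran from -0.42 to 0.54. Its exons, too, overlap an annotated RNA on the other strand.

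**Figure D3:**
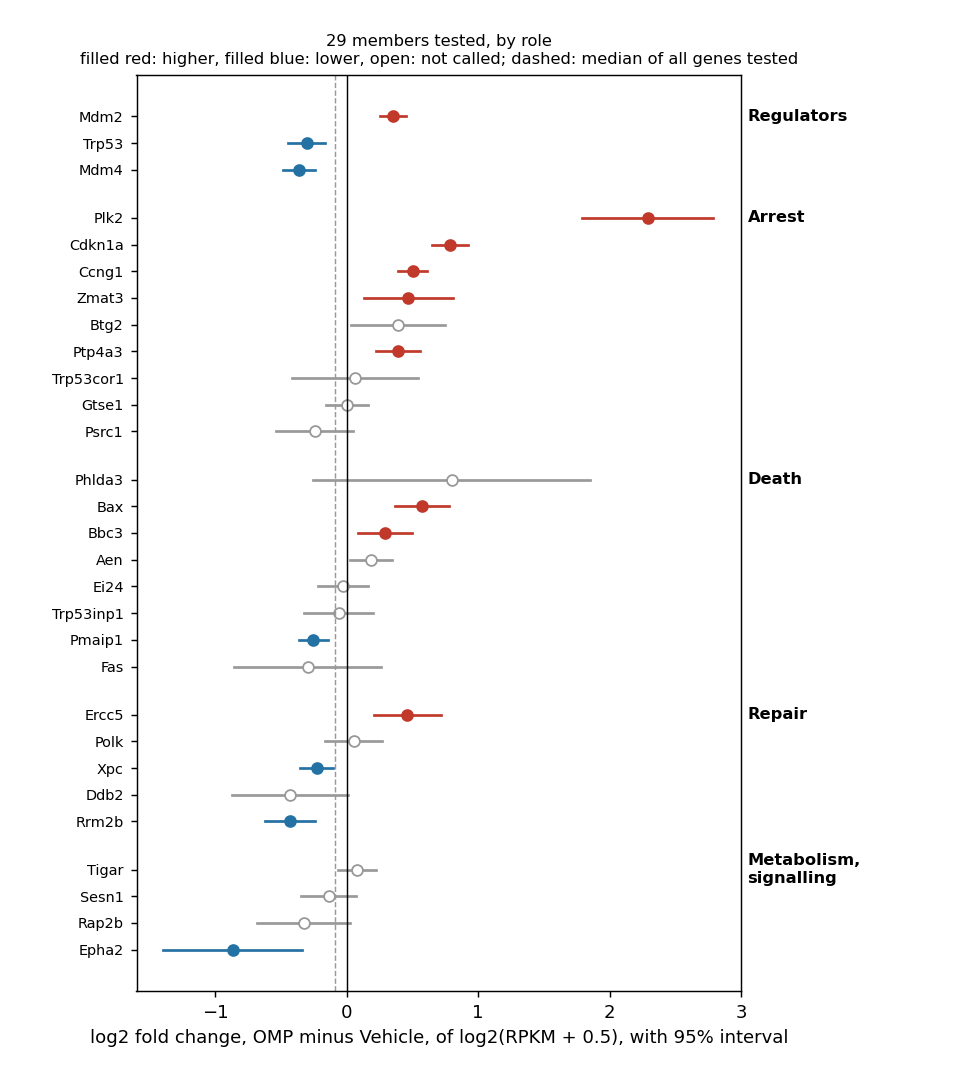
Log2 fold change, OMP minus Vehicle, of log2(RPKM + 0.5) (horizontal axis) with 95% intervals for the 29 members tested, by role. Of the arrest genes 5 lie to the right of 0 and past the threshold, while the regulator, death and repair genes called fall on both sides.

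The plot of fold changes by role sets the arrest genes, with 5 calls to the right and 0 to the left, beside death genes with 2 and 1 and repair genes with 1 and 2. The median log2 fold change was 0.39 over the 9 arrest genes, 0.08 over the 8 death genes tested and -0.23 over the 5 repair genes. These medians are descriptions of small groups, and the difference between roles was not tested.

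Of the 11 death genes 8 were tested, 2 were higher and 1 was lower, counts too small to set apart from the 15.4% and 27.5% over all genes. Bax, which forms the pore in the mitochondrial outer membrane, had 94.7, 116 and 91.9 RPKM in OMP, against 62.7, 67.3 and 72.3 RPKM in Vehicle. It was 1.48-fold higher (0.57 ± 0.09 SE in log2, limma adjusted p = 0.00126), and its exons overlap an annotated gene on the same strand. Bbc3, which encodes the BH3-only protein PUMA, had 20.3, 24.99 and 20.3 RPKM in OMP, against 17.6, 18.7 and 16.9 RPKM in Vehicle (log2 fold change 0.29 ± 0.09 SE, limma adjusted p = 0.0306). That call was lost without OMP replicate 2 (limma adjusted p = 0.0699), Vehicle replicate 1 (0.0753) or Vehicle replicate 3 (0.0917), with TPM (0.0758) and without a filter (0.0693).

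Pmaip1, which encodes NOXA, another BH3-only protein, moved the other way. It had 53.1, 53.8 and 56.5 RPKM in OMP, against 63.3, 67.7 and 64.2 RPKM in Vehicle, with no overlap. The log2 fold change was -0.25 ± 0.05 SE (limma adjusted p = 0.0029).

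The other tested death genes did not pass. Aen, a nuclease that takes part in apoptosis, had 18.5, 18.3 and 19.5 RPKM in OMP, against 16.3, 17.7 and 15.4 RPKM in Vehicle (log2 fold change 0.18 ± 0.07 SE, limma adjusted p = 0.0653). The groups were apart, and the gene passed with median-of-ratios scaling (0.0156), quantile normalization (0.0126), voom (0.0217) and without Vehicle replicate 2 (0.0424). Ei24, an endoplasmic reticulum protein, averaged 30.7 ± 2.33 RPKM in OMP and 31.3 ± 2.89 RPKM in Vehicle, and Trp53inp1, a cofactor of p53 in stress responses, 5.25 ± 0.149 and 5.52 ± 0.635 RPKM in OMP and Vehicle. Their 95% intervals of the log2 fold change ran from -0.22 to 0.16 and from -0.33 to 0.20.

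Several death genes were too low for a firm statement. Phlda3, a repressor of Akt signalling, had 7, 12 and 14 reads in OMP and 1, 11 and 9 reads in Vehicle, and the interval of its log2 fold change ran from -0.26 to 1.85. Fas, the death receptor, had 21 reads over the OMP libraries and 31 over the Vehicle libraries. The receptor Eda2r had 3 reads in OMP and 3 in Vehicle, and Tnfrsf10b, the receptor for TRAIL, had 1 read in OMP and 2 in Vehicle. Perp, a membrane protein, was at 0 in all 6 libraries.

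The 5 repair genes were all tested, 1 was higher and 2 were lower, again too few to set apart from the 15.4% and 27.5% over all genes. Rrm2b, the p53-inducible subunit of ribonucleotide reductase, had 8.72, 7.84 and 7.66 RPKM in OMP, against 10.9, 10.8 and 11.5 RPKM in Vehicle (log2 fold change -0.43 ± 0.08 SE, limma adjusted p = 0.00349). The exons of Rrm2b, like those of Ei24 and Tigar, overlap an antisense gene, with the same limit on telling reads apart as for Cdkn1a. Xpc, a sensor of DNA lesions in nucleotide excision repair, had 26.3, 25.02 and 25.5 RPKM in OMP, against 29.8, 31.4 and 29.2 RPKM in Vehicle. It was called lower at -0.23 ± 0.05 SE in log2 (limma adjusted p = 0.00912), but at -0.14 was not called with median-of-ratios scaling (limma adjusted p = 0.0708). Ercc5, the endonuclease of the same pathway, had 6.22, 5.62 and 5.92 RPKM in OMP, against 3.83, 4.504 and 4.16 RPKM in Vehicle.

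Within nucleotide excision repair, then, Ercc5 was higher (0.46 ± 0.11 SE in log2, limma adjusted p = 0.0101) and Xpc lower. Ddb2, a further lesion sensor, averaged 1.62 ± 0.312 RPKM in OMP and 2.34 ± 0.0673 RPKM in Vehicle, from 39 and 63 reads in OMP and Vehicle, and did not pass (limma adjusted p = 0.105). Its exons overlap those of Acp2 on the other strand. Polk, a polymerase that copies past lesions, averaged 8.25 ± 0.797 RPKM in OMP and 7.91 ± 0.244 RPKM in Vehicle, with overlapping groups.

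Of the 5 genes of metabolism and signalling, Epha2, an ephrin receptor, was lower. It had 0.731, 1.22 and 1.31 RPKM in OMP, against 2.32, 2.12 and 2.65 RPKM in Vehicle, from 46 reads in OMP and 112 in Vehicle. It was 1.83-fold lower, at -0.87 ± 0.23 SE in log2 (limma adjusted p = 0.0159). That call was lost without Vehicle replicate 3 (limma adjusted p = 0.0613). Sesn1, a sestrin that restrains growth signalling through mTORC1, averaged 9.55 ± 0.884 RPKM in OMP and 10.5 ± 0.613 RPKM in Vehicle. Tigar, a phosphatase that lowers glycolytic flux, averaged 18.2 ± 0.935 RPKM in OMP and 17.2 ± 0.382 RPKM in Vehicle. Neither passed, and the intervals of the log2 fold change ran from -0.35 to 0.07 for Sesn1 and from -0.07 to 0.22 for Tigar. Tigar was called higher with quantile normalization alone (limma adjusted p = 0.0499). Rap2b, a small GTPase, averaged 2.83 ± 0.461 RPKM in OMP and 3.65 ± 0.203 RPKM in Vehicle without overlap, and was called lower with voom alone (limma adjusted p = 0.0184). Its exons overlap a gene on the other strand. Gdf15, a secreted stress factor, had 1 read in OMP and 0 in Vehicle.

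The order of levels among the members differed between the groups. In OMP it was Cdkn1a (135 ± 4.42 RPKM), Bax (101 ± 13.01 RPKM), Ccng1 (88.1 ± 2.81 RPKM) and Trp53 (78.3 ± 5.86 RPKM), with no overlap between neighbours. In Vehicle it was Trp53 (96.8 ± 4.72 RPKM), Cdkn1a (78.3 ± 6.05 RPKM), Bax (67.5 ± 4.797 RPKM) and Pmaip1 (65.1 ± 2.34 RPKM), where the ranges of Cdkn1a and Bax, and of Bax and Pmaip1, overlapped.

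Of 39 other reported p53 targets 31 were tested. Of these 4 were higher (15.4% over all genes), 14 were lower (27.5% over all genes) and 13 did not pass, with a median log2 fold change of -0.24. Rps27l, a ribosomal protein variant, averaged 268 ± 5.59 RPKM in OMP and 201 ± 4.27 RPKM in Vehicle, and the thiamine carrier Slc19a2 and the ubiquitin ligase subunit Fbxw7 had log2 fold changes of 0.52 ± 0.11 and 0.45 ± 0.10 SE. Lower were Pcna, the sliding clamp of replication (124 ± 6.06 RPKM in OMP and 192 ± 8.32 RPKM in Vehicle), and Gpx1, a glutathione peroxidase (368 ± 13.9 RPKM in OMP and 527 ± 21.4 RPKM in Vehicle). Gadd45a, a growth arrest and DNA damage gene, averaged 75.6 ± 2.22 RPKM in OMP and 99.7 ± 3.01 RPKM in Vehicle (log2 fold change -0.40 ± 0.04 SE, limma adjusted p = 0.000168). Cdkn1a and Gadd45a, both known for growth arrest, thus moved in opposite directions.

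Of 28 tested genes that act on p53, 10 were higher and 3 lower, against 15.4% and 27.5% of all genes, with a median log2 fold change of 0.08. Among the higher ones the smallest p-values were those of the nucleolar genes Ncl (log2 fold change 0.46 ± 0.04 SE) and Gnl3 (0.60 ± 0.05 SE) and Usp7, a deubiquitinase of Mdm2 and p53 (0.32 ± 0.04 SE). Rpl5, a ribosomal protein that binds Mdm2, averaged 284 ± 2.63 RPKM in OMP and 394 ± 7.45 RPKM in Vehicle. Chek1, the checkpoint kinase, averaged 9.08 ± 1.15 RPKM in OMP and 13.3 ± 0.791 RPKM in Vehicle, and its upstream kinase Atr was lower by a smaller margin (log2 fold change -0.25 ± 0.09 SE, limma adjusted p = 0.0416). The p53 relatives Trp63 and Trp73 were at 0 in all libraries.

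p21 is known to favour the DREAM complex, which holds cell-cycle genes down. Of 26 genes reported as such targets 0 were higher and 22 lower, against 15.4% and 27.5% of all genes, with a median log2 fold change of -0.50. Whether p53, p21 or DREAM had a part in these lower levels was not tested. Aurkb, a mitotic kinase, averaged 27.4 ± 0.499 RPKM in OMP and 57.4 ± 0.657 RPKM in Vehicle. Ccna2, cyclin A2, averaged 31.5 ± 1.52 RPKM in OMP and 61.7 ± 1.24 RPKM in Vehicle. Among the members themselves the cell-cycle genes Gtse1 and Psrc1 did not pass the threshold.

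**Figure D4:**
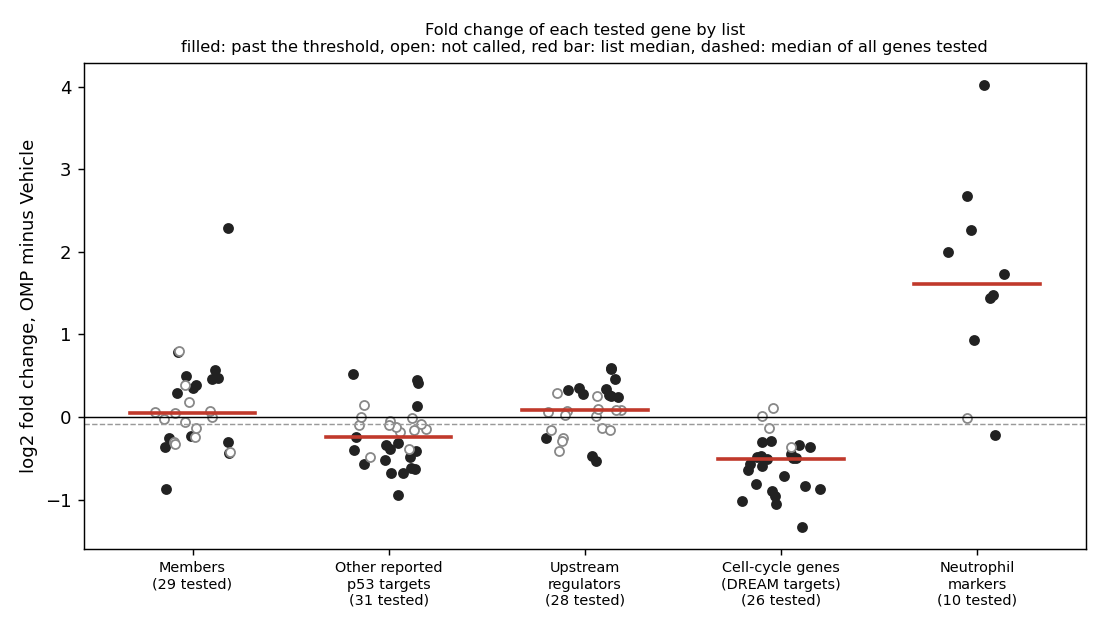
Log2 fold change, OMP minus Vehicle (vertical axis), of each tested gene of the members and of 4 other lists, with the list median (red) and the median of all genes tested (dashed, -0.09). The medians are 0.05 for the members, -0.24 for other reported targets, 0.08 for upstream regulators, -0.50 for DREAM targets and 1.61 for neutrophil markers.

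The plot by list shows the members spread on both sides of 0, with 16 above and 13 below. Of the 26 DREAM targets 24 lie below 0, and over all genes tested 40.01% lie above it. Neutrophil markers moved with the same contrast. Of 10 markers 8 were higher and 1, Cebpe, was lower, against 15.4% and 27.5% of all genes tested, and Cxcr2 did not pass. Their summed level was 8997 to 9525 RPKM in OMP and 2750 to 2865 RPKM in Vehicle. Most of it came from S100a8 (means of 3033 RPKM in OMP and 1091 RPKM in Vehicle) and S100a9 (5462 and 1372 RPKM). In bulk RNA a change in the number of cells of a type and in the RNA per cell cannot be told apart, and the part of either in the members' values was not tested. None of the 5 erythroid, 5 B cell, 5 T cell or 5 megakaryocyte markers passed the filter. Hbb-bs, Pax5, Cd3e and Pf4 were at 0 in every library, and the summed megakaryocyte level was 2.39 to 3.52 RPKM in OMP and 1.03 to 1.36 RPKM in Vehicle. Of 5 mast cell and basophil markers 2 were tested and 0 called, with limma adjusted p-values above the threshold. Of 8 monocyte markers 6 were tested, 1 was higher and 2 were lower, against the same 15.4% and 27.5%.

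Calls for 11 of the 15 members held under each of the 16 alternatives that tested them. These were Mdm2, Cdkn1a, Ccng1, Plk2, Ptp4a3, Bax and Ercc5, higher each time, and Trp53, Mdm4, Pmaip1 and Rrm2b, lower each time. The alternative filter at 5 RPKM left Plk2 untested. Over all genes the split between higher and lower calls depended on scaling, at 1702 and 3033 for the values as deposited, 2366 and 2237 with median-of-ratios scaling, 2224 and 2337 with quantile normalization and 1215 and 3973 with TPM. The members' split was 9 and 6 as deposited, 11 and 5, 12 and 6, and 7 and 6 under the same 3 scalings.

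**Figure D5:**
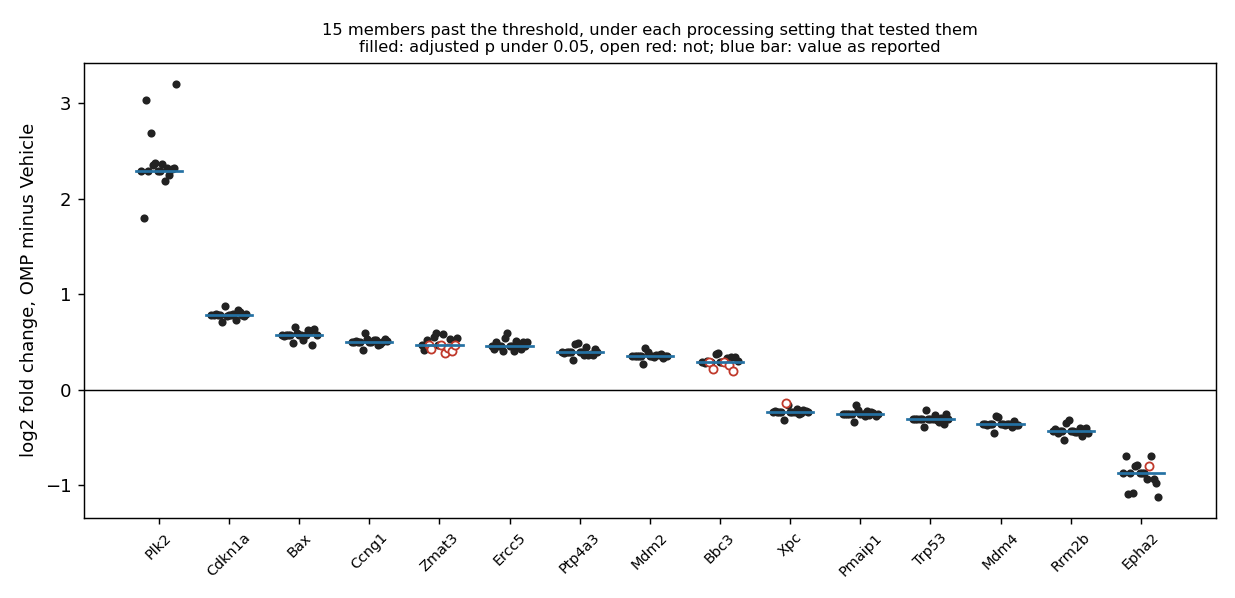
Log2 fold change, OMP minus Vehicle (vertical axis), of the 15 called members under each processing setting that tested them, filled where the adjusted p was under 0.05. Open points stand for lost calls, at Zmat3, Bbc3, Xpc and Epha2, and no value changed sign.

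The plot over settings shows that the values of most members moved little, with Cdkn1a between 0.70 and 0.88 and Trp53 between -0.39 and -0.22. Plk2 and Epha2, the lowest members called, moved most.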

How the data were processed

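The authors deposited RPKM values, reads scaled to gene length and library total, in 1 table. Tools in the submitters' processing notes are STAR 2.5.3a, featureCounts 1.6.3, Trimmomatic 0.36 and FastQC 0.11.5, with build mm10 (GRCm38). Annotation release and strand setting: not given in the sources used here. Columns were matched to libraries by title.

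Members and gene lists were chosen with earlier results of these data known. Genes with at least 1 RPKM in at least 3 libraries were kept, and log2(RPKM + 0.5) was tested for OMP against Vehicle over 6 libraries with limma 3.58.1 (R 4.3.3), two-sided, with a mean-dependent prior and Benjamini-Hochberg adjustment over all genes tested. All 33 members are named. From each other list the 3 higher and 3 lower genes with the smallest p-values and no overlap between groups were named, except 1 that is not reported here, and cell type markers singled out by name were picked from their lists after their values were seen. Values are mean ± SD.

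Whole reads were recovered for all 19970 genes above 0 at a relative tolerance of 1e-06, and 3 reads of a 1 kb gene equal 0.706 to 0.858 RPKM. Depth limits low members, and read numbers cover counting error only. Same-group libraries differed by more than sampling noise (chi-square per degree of freedom 1.18 to 1.57). The procedure was also run on simulated data with far fewer changed genes than were called here. That run did not address the choice of scaling. Positions came from GENCODE M21 and promoter sequences from RefSeq (GRCm38.p6), which held 23 of the 33 members. Figures used matplotlib 3.10.9 and Python 3.11.15.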

Additional observations from a re-analysis of the deposited data

How the results depend on the processing

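Alternatives were pseudocounts of 1 and 0.1, no filter, a filter at 5 RPKM, TPM, median-of-ratios and quantile scaling, a robust prior, voom on recovered reads, the replicate number as a block, and leaving out each library. Over all alternatives 3968 to 5333 genes were called, against 4735. The most, 5333, came from voom on recovered reads. There 1954 of 11020 genes were higher and 3379 lower, and 11 of 29 members were higher and 7 lower. Leaving out 1 library gave 3968 to 4241 genes, with 1418 to 1477 higher and 2531 to 2764 lower. Among the members 7 to 9 were then higher and 5 to 7 lower. Across the members and alternatives 432 values stayed on the side of the threshold reported, 14 fell short of it, 10 newly passed, and 0 changed sign where either value was called. Uncalled values near 0 did change sign, for Gtse1, Trp53cor1, Trp53inp1, Ei24, Polk and Tigar, for example Gtse1 between -0.08 and 0.10. Nothing pairs libraries that share a replicate number, and their deviations from the group means had correlations of -0.00244, 0.0155 and 0.00694. With the replicate block 4445 genes were called, with 8 members higher and 6 lower. Depth limits Plk2, Phlda3, Fas, Ddb2 and Epha2.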
